A study of Homo sapiens with 12 samples.

Results

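The MYB family of human transcription factors has 3 members, MYB (c-MYB), MYBL1 (A-MYB) and MYBL2 (B-MYB). All 3 were taken by symbol from a table of 18417 genes measured on Affymetrix Gene 1.0 ST arrays, and each had a single row that named no other gene. The samples were 12 cultures of HEL and UKE1, established human cell lines labelled as erythroleukemia cells, both with the JAK2V617F mutation, which keeps the kinase JAK2 active without cytokine. The 4 groups held 3 arrays each: HEL with ITF2357, HEL untreated, UKE1 with ITF2357 and UKE1 untreated. Treated cells received 250 nM ITF2357 (givinostat), an inhibitor of histone deacetylases, for 6 h, and untreated cells were cultured for the same 6 h without it. UKE1 medium also held horse serum, hydrocortisone and HEPES in both conditions, which HEL medium did not, so line and medium cannot be told apart. The series describes the 3 cultures of a group as independent; each cell type is represented by 1 line, so p-values cover only the scatter among cultures of that line.

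MYB proteins bind DNA through repeats of a helix-turn-helix fold near the amino end and recognise the core AACNG. MYB is needed by blood stem and progenitor cells and falls as they mature. MYBL2 is made in most dividing cells, is itself a target of E2F factors, and joins the MuvB complex (LIN9, LIN37, LIN52, LIN54 and RBBP4) to switch on mitotic genes. MYBL1 is best known from the mouse testis, where it drives meiotic and piRNA genes, and from germinal centre B cells.

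The values are log2 signals normalized by the authors with RMA. Pairs of arrays within a group had r = 0.994 to 0.996, and no array stood apart. The lines differed widely at baseline: of 11 erythroid markers measured, 10 were lower and 1 was higher in untreated UKE1 than in untreated HEL cells, where 34.4% of all genes were lower and 33.3% higher. Embryonic globin HBE1 averaged 5.19 ± 0.10 in untreated UKE1 and 12.95 ± 0.0402 in untreated HEL cells (log2, SD, n = 3 each). These markers were read relative to HEL cells, so whether UKE1 cells bear out the erythroid label was not tested. Of 5 T-cell markers, 3 were higher, 1 was lower and 1 was not called in untreated UKE1 against untreated HEL cells. CD3D, one of those higher, averaged 9.15 ± 0.0453 in untreated UKE1 and 4.30 ± 0.192 in untreated HEL cells. Of 9 megakaryocyte markers, 5 fell and 0 rose with ITF2357 in HEL, and 7 fell and 0 rose in UKE1, where 19.9% of all genes fell in HEL and 22.3% in UKE1. Whether the erythroid, T-cell or megakaryocyte markers had any part in the values below was not tested. In bulk RNA, fewer cells of a kind and less RNA per cell cannot be told apart.

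ITF2357 lowered MYB and raised MYBL1 in both lines, while MYBL2 fell in UKE1 and was not called in HEL. In HEL, 2 of the 3 members were called (limma, Benjamini-Hochberg adjusted p under 0.05), where 42.4% of all genes were. In UKE1 all 3 were called, where 44.3% of all genes were. With so many genes called, the sizes and ranks below say more than the calls.

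**Figure D1:**
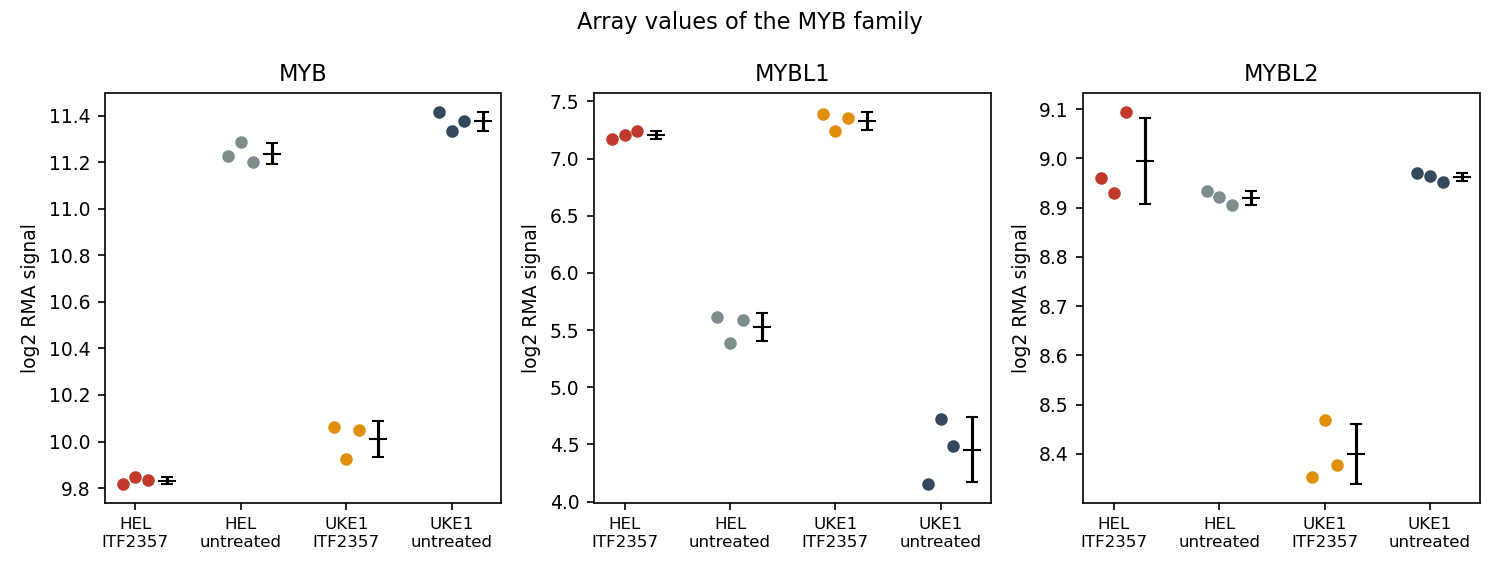
Log2 RMA signal of MYB, MYBL1 and MYBL2 on each of the 12 arrays (coloured points, 3 per group), with the group mean and SD in black beside them; each panel has its own vertical scale, which does not start at 0. MYB is lower and MYBL1 higher on every treated array than on any untreated array, and MYBL2 is low on the 3 treated UKE1 arrays, at 8.35 to 8.47.

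The promoters of MYB and MYBL2 are shown because both genes are known E2F-responsive genes and both fell in UKE1. In HEL MYB fell too, but MYBL2 was not called. The promoters run from 250 bases before to 50 bases after the gene's start (RefSeq, GRCh38.p14, plus strand), MYB at chr6:135181058-135181357 and MYBL2 at chr20:43666864-43667163. Capitals mark the E2F-type motif GGCGGGA.
MYB: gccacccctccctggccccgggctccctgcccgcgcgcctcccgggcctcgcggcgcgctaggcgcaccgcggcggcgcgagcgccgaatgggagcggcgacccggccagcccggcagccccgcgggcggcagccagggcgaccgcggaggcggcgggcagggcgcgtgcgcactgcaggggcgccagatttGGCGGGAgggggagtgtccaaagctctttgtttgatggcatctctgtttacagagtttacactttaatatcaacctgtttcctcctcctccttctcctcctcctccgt
MYBL2: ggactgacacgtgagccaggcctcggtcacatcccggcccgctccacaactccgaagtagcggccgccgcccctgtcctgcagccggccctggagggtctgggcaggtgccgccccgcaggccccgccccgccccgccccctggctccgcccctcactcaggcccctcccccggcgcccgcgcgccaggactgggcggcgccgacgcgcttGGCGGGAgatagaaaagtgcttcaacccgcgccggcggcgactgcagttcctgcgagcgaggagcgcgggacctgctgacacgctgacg

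Each promoter held the motif once, on the plus strand, with its first base at position -58 from the start in MYB and -39 in MYBL2. Of 35116 RefSeq promoters of this length, 15.4% held GGCGGGA on either strand. The match extended to the same 10 bases, TTGGCGGGAG, in both promoters, a stretch chosen after the sequences were compared and found in 0.165% of all promoters. The MYB core AACNG lay at 2 places in the MYB promoter and at 1 in the MYBL2 promoter, on the minus strand, and 77.2% of all promoters held it on either strand. The mitotic CHR letters TTTGAA or TTCGAA were in neither window, against 16.4% of all promoters on either strand. Other forms of the CHR were not searched, so its absence is not shown. The promoters were rich in G and C, with 71.0% in MYB and 75.3% in MYBL2 against a median of 58.7%. These matches describe letters and show no binding. The MYBL1 promoter was not read for these motifs, so they cannot set MYB and MYBL2 apart from MYBL1.

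MYB, the progenitor factor, read 9.82, 9.85 and 9.83 in ITF2357-treated HEL arrays, against 11.23, 11.29 and 11.20 in untreated HEL arrays (log2). In UKE1 it read 10.06, 9.92 and 10.05 with ITF2357, against 11.42, 11.34 and 11.38 untreated. All 6 treated arrays lay below all 6 untreated ones, by more than 1 log2 unit. Within a line, arrays did not overlap in the downward direction for 23.7% of all genes in HEL and 26.7% in UKE1. No such share was taken over both lines together. MYB averaged 9.83 ± 0.0145 in treated and 11.24 ± 0.0443 in untreated HEL cells (SD, n = 3 each), a log2 change of -1.41 with a 95% interval of -1.53 to -1.28 (limma, adjusted p = 1.74e-09). It averaged 10.01 ± 0.0760 in treated and 11.38 ± 0.0399 in untreated UKE1 cells, a log2 change of -1.37 with a 95% interval of -1.49 to -1.24 (limma, adjusted p = 1.22e-09). This fall was the 49th largest of 18417 genes in HEL and the 128th largest in UKE1.

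The responses of MYB in the lines lay close together. The UKE1 change minus the HEL change was 0.04 on the log2 scale, with a 95% interval of -0.14 to 0.22 (limma, adjusted p = 0.773). Treated UKE1 cells held slightly more MYB than treated HEL cells, by 0.18 ± 0.0587 (SE; limma, adjusted p = 0.0147), where 68% of all genes differed, 34% higher and 34% lower. That call was lost without treated UKE1 replicate 1 (adjusted p = 0.0588) or 3 (adjusted p = 0.0518). Between the untreated lines the difference was 0.14 ± 0.0587 (adjusted p = 0.0506), where 67.7% of all genes were called. The arrays did not overlap, which held for 69.4% of all genes, and the call turned with the normalization: it was 0.32 after a further quantile normalization (adjusted p = 0.000268).

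MYBL1 (A-MYB) moved the other way. It read 7.17, 7.21 and 7.24 in treated HEL arrays, against 5.61, 5.38 and 5.59 in untreated HEL arrays. In UKE1 it read 7.39, 7.24 and 7.35 with ITF2357, against 4.15, 4.72 and 4.49 untreated. Every treated array lay above every untreated array of either line, and the untreated UKE1 arrays were the lowest and the most spread. Within a line, arrays did not overlap in the upward direction for 25.3% of all genes in HEL and 27.2% in UKE1. No such share was taken over both lines together.

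MYBL1 averaged 7.21 ± 0.0349 in treated and 5.53 ± 0.125 in untreated HEL cells (SD, n = 3 each), a rise of 3.20-fold with a 95% interval of 2.70 to 3.79 (limma, adjusted p = 5.68e-08). It averaged 7.33 ± 0.0781 in treated and 4.45 ± 0.284 in untreated UKE1 cells, a rise of 7.33-fold with a 95% interval of 6.19 to 8.69 (limma, adjusted p = 6.08e-10). The rise ranked 41 among 18417 genes in HEL and 1 in UKE1. At 4.15 to 4.72, the untreated UKE1 signals lay below the array medians of 6.41 to 6.50. The table carries no detection flag, so whether these signals stood above background was not tested, and a signal near background understates a fold change.

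The rise of MYBL1 was larger in UKE1 than in HEL by 1.20 ± 0.161 on the log2 scale (SE; limma, adjusted p = 0.000128), where 10.1% of all genes were called in that direction. The lines stood apart before treatment: untreated UKE1 cells read 1.07 lower than untreated HEL cells on the log2 scale, a change of -1.07 ± 0.114 (adjusted p = 1.2e-06). With ITF2357 the treated UKE1 minus treated HEL difference was 0.12, with a 95% interval of -0.12 to 0.37 (adjusted p = 0.355). In the order of levels, the treated groups of both lines were the highest and did not differ past the threshold, untreated HEL cells came next and untreated UKE1 cells were the lowest.

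MYBL2 (B-MYB), the cell-cycle member, read 8.96, 8.93 and 9.09 in treated HEL arrays, against 8.93, 8.92 and 8.90 in untreated HEL arrays. In UKE1 it read 8.35, 8.47 and 8.38 with ITF2357, against 8.97, 8.96 and 8.95 untreated. The HEL groups overlapped, and the treated UKE1 arrays lay below all 9 others. Within UKE1, treated arrays lay below untreated ones without overlap for 26.7% of all genes. The share of genes with treated UKE1 arrays below all 9 others was not taken. In HEL the log2 change was 0.08 with a 95% interval of -0.05 to 0.21 (limma, adjusted p = 0.364), an interval that leaves room for a rise of up to 1.15-fold.

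In UKE1 MYBL2 averaged 8.40 ± 0.0614 with ITF2357 and 8.96 ± 0.00846 untreated (SD, n = 3 each). The fall of 1.48-fold had a 95% interval of 1.35 to 1.62 (limma, adjusted p = 3.46e-06). By size of fall in UKE1 MYBL2 ranked 1546 among 18417 genes, so it was not among the steepest. Counting both directions, 16.1% of all genes changed more in UKE1. The UKE1 change minus the HEL change was -0.64 ± 0.0855 (SE; limma, adjusted p = 0.000128), where 13.8% of all genes were called in that direction. Of the genes called for that difference, 42.2% were in the higher direction as deposited and 30.6% after each array was centred on its median. The untreated UKE1 minus untreated HEL difference was 0.04 ± 0.0605 (adjusted p = 0.555), while treated UKE1 cells were lower than treated HEL cells by a log2 difference of -0.60 ± 0.0605 (adjusted p = 8.46e-07).

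**Figure D2:**
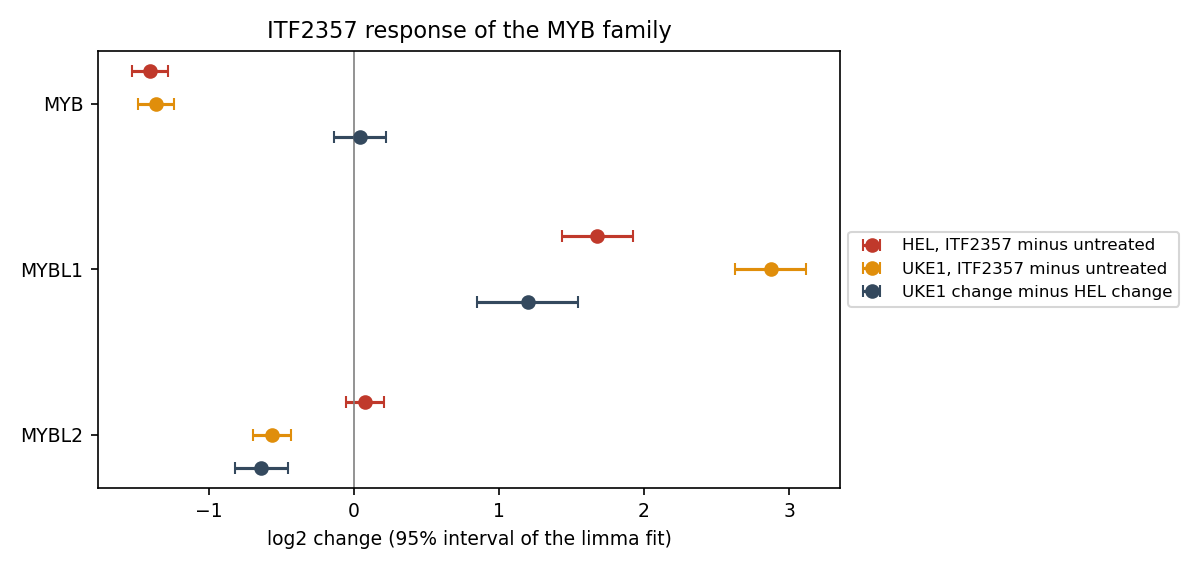
Log2 changes with ITF2357 (points) and their 95% intervals (bars) for each family member in HEL, in UKE1, and as the UKE1 change minus the HEL change; the vertical line marks no change. The MYB intervals of both lines overlap, whereas the MYBL1 and MYBL2 differences between lines, 1.20 and -0.64, lie clear of 0.

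The members' changes were also set against each other within each array, which needs no comparison of levels between probes. The log2 signal of MYBL1 minus that of MYB changed by 3.66 with ITF2357, averaged over the lines. The same change was 1.14 for MYBL2 minus MYB and 2.52 for MYBL1 minus MYBL2. In an exact two-sided permutation test over 400 arrangements of the treatment labels within lines, each of the 3 pairs gave p = 0.005, the smallest these arrangements allow, and adjusted p = 0.005 over the 3 pairs. None of the 3 p-values adds to the changes above, since the array values already given fixed them. MYB and MYBL1 separated treated from untreated arrays in opposite directions. MYBL2 changed by 0.08 in HEL and -0.56 in UKE1, less than MYB or MYBL1 in either line. Equal p-values cannot rank the 3 changes. Within HEL alone the changes were 3.08, 1.48 and 1.60, and within UKE1 alone they were 4.24, 0.80 and 3.44 in the same order, where the smallest p that 3 against 3 arrays allow is 0.1. Over the 12 arrays MYB and MYBL1 correlated at r = -0.96, MYB and MYBL2 at r = 0.41, and MYBL1 and MYBL2 at r = -0.51; the arrays share 4 groups, so these values describe the group pattern.

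**Figure D3:**
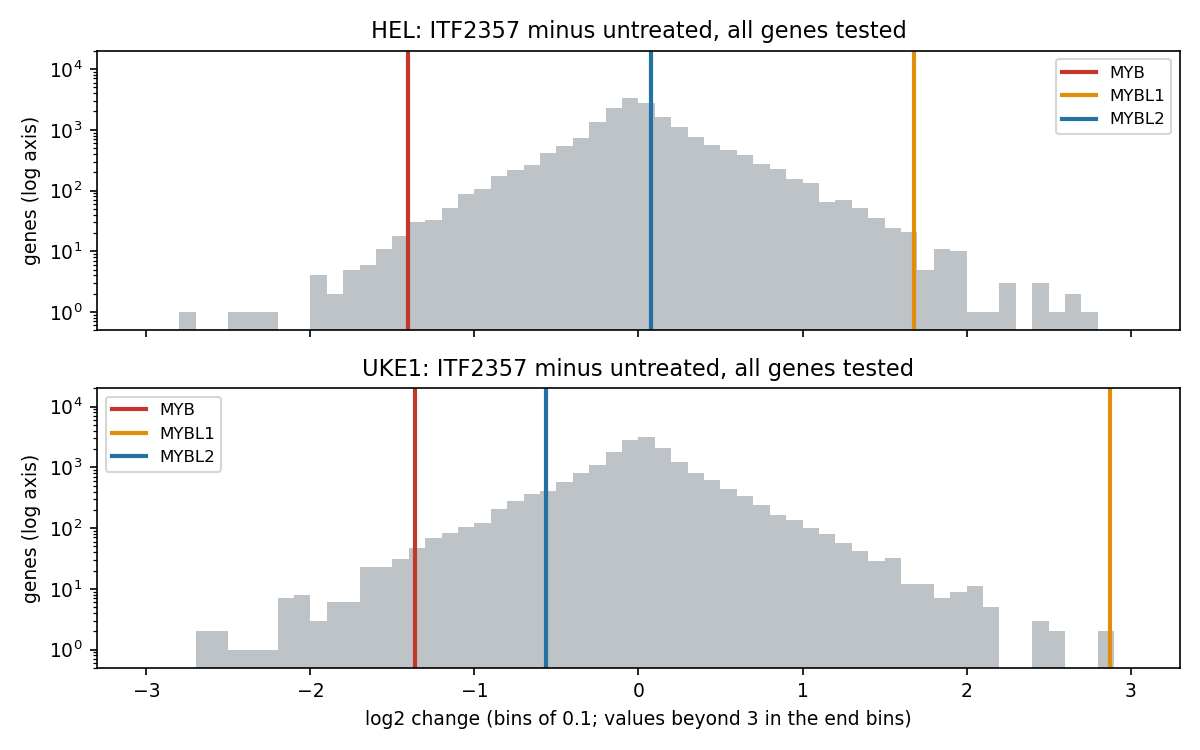
Number of genes (log axis) by log2 change with ITF2357, for all 18417 genes in HEL (top) and UKE1 (bottom), with a coloured line for each family member. MYB lies in the lower tail of both panels, MYBL1 in the upper tail of both and at the far end in UKE1, and MYBL2 in the body of both.

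Among known targets of MYB, more fell than rose in both lines, and many were not called. Of 21 measured in HEL, 11 fell, 5 rose and 5 were not called, with a median log2 change of -0.18; over all genes 19.9% fell and 22.6% rose, with a median of -0.01. TAL1 (-1.12, adjusted p = 7.48e-08), a master factor of stem and red cells, MYC (-0.79, adjusted p = 1.18e-07), a driver of growth, and the mitotic cyclin CCNB1 (-0.82, adjusted p = 1.9e-07) had the smallest p-values among those that fell (limma). The members that rose in HEL were the chemokine receptor CXCR4 (1.14), the G1/S cyclin CCNE1 (0.62), the T-cell coreceptor CD4 (0.50), the purine enzyme ADA (0.39) and the germ cell cyclin CCNA1 (0.32, all log2).

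In UKE1, 10 of the 21 MYB targets fell, 3 rose and 8 were not called, with a median of -0.13; over all genes 22.3% fell and 22% rose, with a median of 0.01. CD34, a surface protein of progenitors, averaged 10.94 ± 0.0506 in treated and 12.12 ± 0.0685 in untreated UKE1 cells (log2, SD, n = 3 each; limma, adjusted p = 3.93e-09). TAL1 (-1.28), the myeloid factor SPI1 (-0.96) and CCNB1 (-0.63) fell as well, and CCNE1 (0.96), CD4 (0.48) and CCNA1 (0.50) rose. The lines differed for 7 of the 21 targets, 2 with a higher and 5 with a lower change in UKE1. Over all genes 10.1% were called higher and 13.8% lower. CXCR4 rose in HEL and was not called in UKE1 (-0.13), and its UKE1 change minus HEL change was -1.27 (adjusted p = 9.43e-07); CD34 fell further in UKE1, by -0.74 (adjusted p = 3.66e-05). BCL2, which blocks cell death, and KIT, the stem cell factor receptor, fell in UKE1 by 0.76 and 0.39; their changes in HEL were 0.05 and 0.06, neither called.

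Cofactors and regulators of MYB split. The acetyltransferase CREBBP, a coactivator that binds the MYB activation domain, fell in HEL (-0.81) and UKE1 (-1.01), and its relative EP300 fell too (-0.53 and -0.57). The menin-MLL partners of MYB rose, KMT2A by 0.51 in HEL and 0.50 in UKE1, and MEN1 by 0.22 and 0.43. FBXW7, a ubiquitin ligase part that marks MYB for breakdown, rose by 0.52 and 0.58, and the kinase NLK, which phosphorylates MYB, by 0.28 and 0.72. HIPK2, another kinase of MYB, fell by 1.23 in HEL and 0.73 in UKE1, and MYBBP1A, a nucleolar protein that binds MYB, by 1.30 and 0.86.

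Among 24 such genes, 10 rose and 6 fell in HEL (median 0.08), and 11 rose and 6 fell in UKE1 (median 0.07). Over all genes 22.6% rose and 19.9% fell in HEL, and 22% rose and 22.3% fell in UKE1, so the share of these genes that fell was near that of all genes. PIM1, a kinase induced by STAT5, fell in HEL (-0.79) and rose in UKE1 (0.37), a difference of 1.16 (limma, adjusted p = 6.93e-07). The rows of the microRNA genes MIR150, MIR15A and MIR16-1, whose products are known to target MYB, were not called: their log2 changes were -0.20, 0.08 and 0.12 in HEL and -0.18, 0.09 and -0.06 in UKE1. These rows cover precursor genes and do not measure mature microRNAs.

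In each line 3 of the 5 MuvB subunits were called, the same in both, where 42.4% of all genes were called in HEL and 44.3% in UKE1. The other subunits, LIN52 (0.04 in HEL and 0.00 in UKE1) and the histone-binding RBBP4 (-0.14 and -0.16, log2), were not called in either line. LIN9, a MuvB subunit that takes part in docking MYBL2, averaged 6.71 ± 0.0523 in treated and 7.56 ± 0.0544 in untreated HEL cells (log2, SD, n = 3 each), and it fell in UKE1 too (-0.85 and -1.11; limma, adjusted p = 1.68e-07 and 1.32e-08). FOXM1, the forkhead factor recruited after MYBL2, fell by 0.81 in HEL and 0.96 in UKE1. LIN37, the MuvB subunit tied to repression in quiescent cells, rose by 0.88 and 1.15, and LIN54, which contacts DNA, rose by 0.45 and 0.37. The kinase DYRK1A, which promotes assembly of the repressive DREAM complex, fell by 0.51 and 0.83, and the E2F partner TFDP1 by 0.43 and 0.87.

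Of these 14 MuvB and DREAM genes, 7 fell, 3 rose and 4 were not called in HEL (median -0.16), and 6 fell, 2 rose and 6 were not called in UKE1 (median -0.11). The shares over all genes were 19.9% lower and 22.6% higher in HEL, and 22.3% lower and 22% higher in UKE1, so the risers were not above background. TFDP2, another E2F partner, was the member that rose in HEL (0.55) and was not called in UKE1 (0.04). For 5 of the 14 the UKE1 change was lower than the HEL change past the threshold, and for 0 it was higher. Over all genes, 13.8% were called lower in UKE1.

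Mitotic targets of MYBL2, MuvB and FOXM1 fell in part in both lines. Of 29 measured, 14 fell, 5 rose and 10 were not called in HEL (median -0.22), and 16 fell, 3 rose and 10 were not called in UKE1 (median -0.24). Of all genes, 19.9% fell and 22.6% rose in HEL, and 22.3% fell and 22% rose in UKE1. PLK1, a mitotic kinase, averaged 9.55 ± 0.0916 in treated and 10.19 ± 0.0529 in untreated HEL cells, and 9.05 ± 0.0529 in treated and 10.28 ± 0.0434 in untreated UKE1 cells (log2, SD, n = 3 each). Cyclin A2 (CCNA2) fell by 0.30 in HEL and 1.00 in UKE1, and the ubiquitin-conjugating enzyme UBE2C by 0.60 and 0.66.

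The falls of PLK1 and CCNA2 were larger in UKE1, with differences of -0.60 (limma, adjusted p = 0.000333) and -0.69 (adjusted p = 0.000196). Of the 29, 8 had a lower and 2 a higher change in UKE1 past the threshold, where 13.8% of all genes were lower and 10.1% higher. The spindle kinases TTK and BUB1 went apart: the difference was -0.61 for TTK and 0.47 for BUB1. Against the rest, NEK2 rose by 0.50 in HEL and 0.68 in UKE1, and CDC25C, a phosphatase that activates CDK1, by 0.48 and 0.45. CDC20 (0.22), CKS2 (0.24) and CDC25B (0.21) rose in HEL, and TOP2A, which untangles DNA, rose in UKE1 (0.25) and fell in HEL (-0.20).

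E2F factors and their S-phase targets, the group to which MYBL2 belongs as an E2F target, fell more often in both lines than they rose. Of 27 measured, 15 fell, 6 rose and 6 were not called in HEL (median -0.32), and 17 fell, 6 rose and 4 were not called in UKE1 (median -0.39). Against 19.9% of all genes that fell and 22.6% that rose in HEL, and 22.3% and 22% in UKE1, the number that rose was at the background share. GINS3, a part of the replicative helicase, fell by 0.83 in HEL and 1.76 in UKE1, and the repressor E2F8 by 0.42 and 1.20. The helicase subunit MCM7 fell by 0.51 and 0.99, and the thymidylate synthase TYMS by 0.38 and 0.83. The members that rose in both lines were CCNE1 (0.62 and 0.96), RB1 (0.45 and 0.43), the brake on E2F, TK1 (0.51 and 0.45) and CDC6 (0.28 and 0.37). Of the 27, 11 had a lower and 0 a higher change in UKE1 than in HEL past the threshold, where 13.8% of all genes were lower and 10.1% higher. Before treatment 21 of the 27 were higher and 2 lower in UKE1 than in HEL, with a median log2 difference of 0.95, where 33.3% of all genes were higher and 34.4% lower, while MYBL2 itself differed by 0.04.

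**Figure D4:**
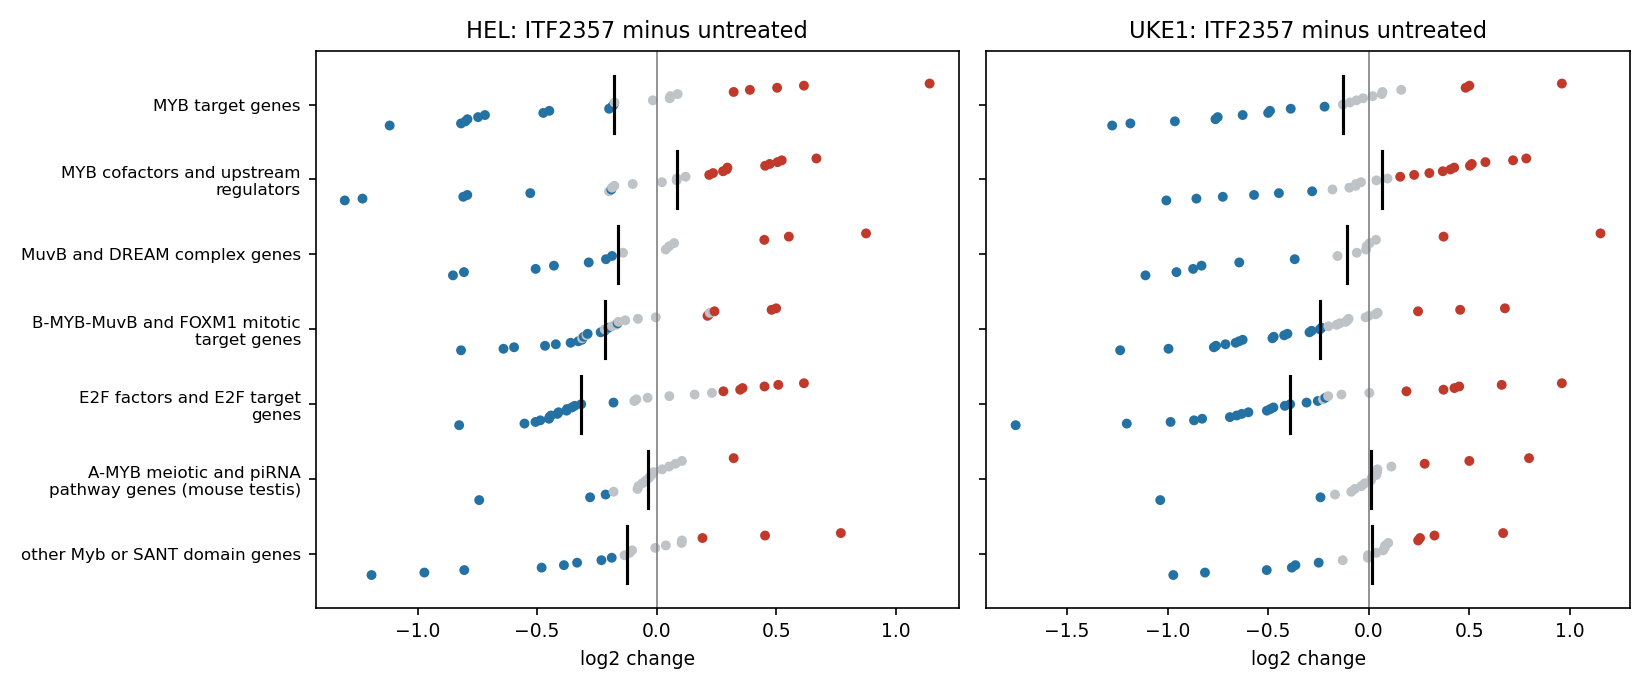
Log2 changes with ITF2357 of every measured gene in 7 groups around the MYB family, in HEL (left) and UKE1 (right); red points rose, blue points fell and grey points were not called, and the black bar is the group's median. The medians of the mitotic and E2F groups lie below 0 in both lines, at -0.22 and -0.32 in HEL and -0.24 and -0.39 in UKE1.

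Meiotic and piRNA pathway genes, listed for the role of A-MYB in the mouse testis, were mostly not called beside the rise of MYBL1. The list follows the pathways, and which of its genes A-MYB drives was not tested. In HEL, 1 of the 16 genes measured rose and 3 fell (median -0.04), where 42.4% of all genes were called. In UKE1, 3 rose and 2 fell (median 0.01), where 44.3% of all genes were called. CCNA1 rose in both lines (0.32 and 0.50). PIWIL4, a piRNA-binding protein, rose in UKE1 by 0.80 and the tudor protein TDRD1 by 0.28. The RNA helicase TDRD9 fell by 1.04 in UKE1, and the piRNA methyltransferase HENMT1 fell by 0.74 in HEL. PIWIL1, the main pachytene piRNA partner, had log2 changes of -0.08 in HEL and 0.01 in UKE1 (adjusted p = 0.572 and 0.95).

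Genes outside the family that share a Myb or SANT domain showed no rise like that of MYBL1. Among 18 such genes, 3 rose and 8 fell in HEL (median -0.12), and 4 rose and 6 fell in UKE1 (median 0.02). In HEL 22.6% of all genes rose and 19.9% fell, and in UKE1 22% rose and 22.3% fell, so the share that rose in UKE1 was that of all genes. ZZZ3 and TADA2A, parts of the ATAC acetyltransferase complex, fell by 1.19 and 0.97 in HEL and by 0.51 and 0.97 in UKE1. The ribosome-associated chaperone DNAJC2 fell by 0.80 and 0.81, and CDC5L, a splicing factor, by 0.39 and 0.38. DNAJC1 rose by 0.77 in HEL and 0.67 in UKE1, and the corepressor RCOR1 by 0.45 and 0.33.

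The 2 nearest measured genes on each side of every member were also read. Next to MYB, HBS1L had log2 changes of 0.14 in HEL (adjusted p = 0.163) and 0.45 in UKE1 (adjusted p = 0.00019), and AHI1, a ciliary protein gene, rose by 0.99 and 0.78, while MYB fell. ALDH8A1, an aldehyde dehydrogenase gene beyond HBS1L, rose in UKE1 (0.86), and PDE7B was not called in either line. Next to MYBL1, the deubiquitinase gene VCPIP1 rose by 0.33 in HEL and 0.29 in UKE1, and VXN had changes of 0.02 and 0.13, neither called. Farther out, ADHFE1 rose by 0.61 in UKE1, and PTTG3P, a retrogene copy of PTTG1 whose probes may not separate it from its parent, by 0.27 in HEL. Next to MYBL2, the ciliary transport gene IFT52 rose by 0.83 and 0.36, and GTSF1L fell by 0.35 in HEL. The kinase gene SGK2, beyond IFT52, rose by 0.45 and 0.28, and TOX2 was not called in either line. None of the neighbours of MYB or MYBL1 changed as far as the member beside it, in HEL or in UKE1. In HEL, where MYBL2 changed by 0.08, its neighbours IFT52, SGK2 and GTSF1L changed further and TOX2 did not. In UKE1, where MYBL2 changed by -0.56, none of its neighbours changed as far.

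The genes most like each member over the 12 arrays were taken by Pearson's r among genes whose SD was at least 50% of the member's. For MYB, with 6672 such genes, they were UTP20 (r = 0.996), a ribosome assembly factor, TTC27 (0.996), NBN (0.995), a part of the complex that senses DNA breaks, METAP1D (0.993), a mitochondrial aminopeptidase, and PPP4R3A (0.992), a subunit of protein phosphatase 4. All 5 fell in both lines, by 0.71 to 2.45 in HEL and 0.76 to 2.63 in UKE1.

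For MYBL1, with 2690 such genes, they were KIF3A (r = 0.991), a motor subunit of ciliary transport, PDE6D (0.986), a carrier of lipid-modified proteins, WDR19 (0.984), a subunit of the ciliary transport complex, NEU1 (0.982), a lysosomal sialidase, and RGL1 (0.980), an exchange factor for Ral. Each was lower in untreated UKE1 than in untreated HEL cells, by a log2 difference of -0.61 to -0.89, and rose in both lines, by 1.39 to 2.51 in UKE1 and 0.89 to 1.91 in HEL. For MYBL2, with 16483 such genes, they were ST7 (r = 0.982), CYBRD1 (0.974), a ferric reductase, MS4A6A (0.965), NOLC1 (0.965), a nucleolar protein, and UBA7 (0.963), which activates ISG15. All 5 fell in UKE1, by 0.27 to 1.54, and their HEL changes lay between -0.08 and 0.20. These r values describe likeness over arrays of the same 4 groups and carry no test.

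**Figure D5:**
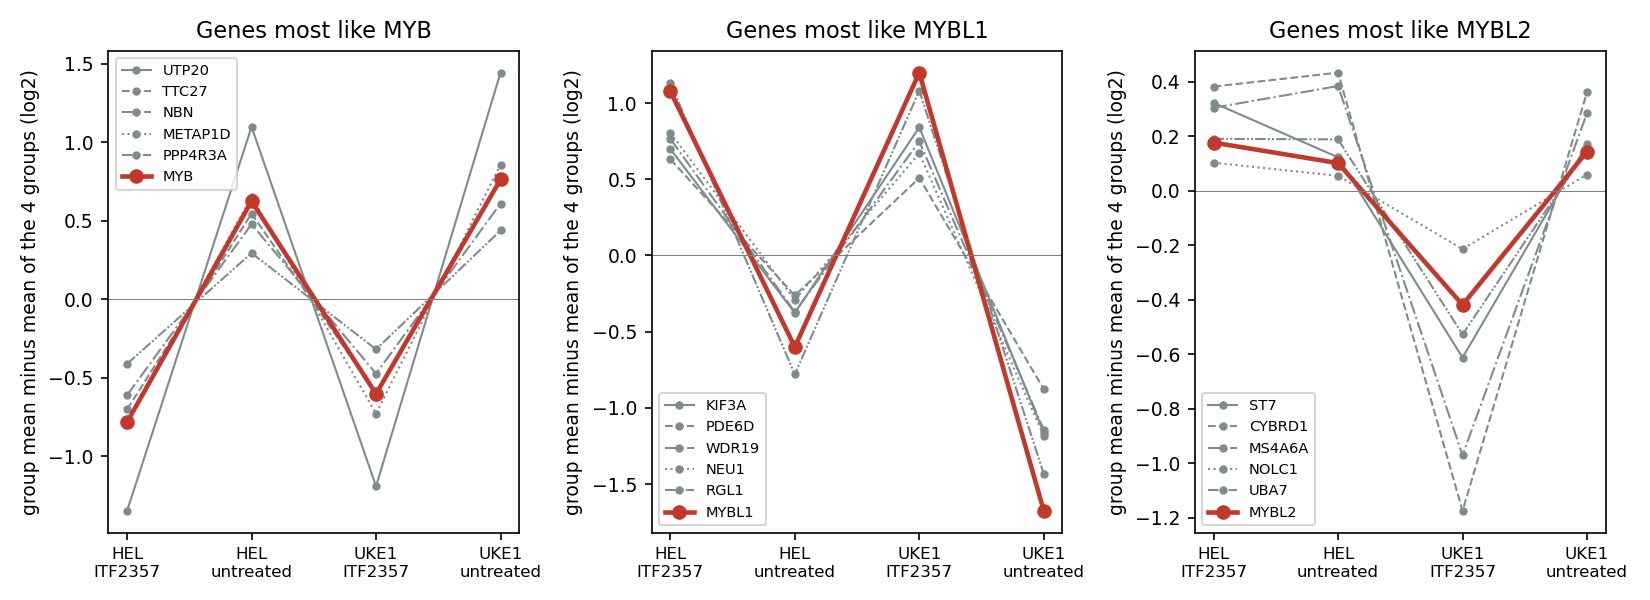
Group means on the log2 scale, each minus the mean of its gene's 4 groups, for each family member (red) and the 5 genes most like it (grey). The MYB panel shows the same zigzag in both lines, the MYBL1 panel its mirror image with the lowest point in untreated UKE1 cells, and the MYBL2 panel a single low point in treated UKE1 cells.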

How the data were processed

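Expression was measured on 12 Affymetrix Gene 1.0 ST arrays, 3 in each of 4 groups. The submitters' processing notes name RMA in Affymetrix Expression Console, with no version. The authors' deposited values run between 1.26 and 14.36 and were read as log2 on that ground, since no label states the base. They carry no detection flag and no scan date or slide, so no batch was tested; precision is limited by there being 3 arrays a group.

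Of 33297 rows, 19460 had 1 gene symbol in GEO's platform annotation, 1754 had several and 12083 had none. Rows with a single symbol were kept, 1 per symbol by the highest mean, which left 18417 genes. All 12 arrays entered a single limma 3.58.1 model (R 4.3.3, lmFit and eBayes) holding a mean for every group. All p-values for genes are two-sided and adjusted by Benjamini-Hochberg over the 18417 genes, with a threshold of 0.05, and "rose", "fell" and "called" mean past it. The fit was tested on simulated data.

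Gene lists covered MYB targets, MYB cofactors, MuvB and DREAM genes, mitotic targets and E2F genes. They also covered meiotic and piRNA pathway genes, other Myb-domain genes and cell type markers. The family and the lists were chosen with earlier results of these data known. Lists share some members, such as CCNB1 and CCNE1, and are described by counts and medians only. Genes named were the members, per list the genes of smallest adjusted p (up to 4 in each drug contrast, up to 2 in the others), the 5 genes most like each member, 2 neighbours on each side in the RefSeq gene table (GRCh38.p14), and up to 5 members of a list that moved against the rest. EP300, KMT2A, MEN1, FBXW7, BCL2, KIT, TTK, LIN52, RBBP4, TK1, CDC6, PIWIL1, CDC5L, HBE1, CD3D and the 3 microRNA genes were added after their values were seen, for their roles. Same-numbered treated and untreated arrays did not deviate together (r = -0.115 to 0 in HEL and -0.028 to -0.002 in UKE1), so numbers were not used as pairs. Alternatives were other scalings, filters, fits and left-out arrays.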

Additional observations from a re-analysis of the deposited data

Results flagged for a closer look

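The response of MYBL1 differed between the lines by a test of the difference itself. Its UKE1 change minus its HEL change was 1.20 on the log2 scale (limma, adjusted p = 0.000128), and every treated array of both lines was above every untreated one. The treated groups averaged 7.33 in UKE1 and 7.21 in HEL, and the untreated groups 4.45 in UKE1 and 5.53 in HEL. The response of MYBL2 also differed, with a UKE1 change minus HEL change of -0.64 (limma, adjusted p = 0.000128): 3 of 3 treated UKE1 arrays were below all untreated UKE1 arrays, while the HEL groups overlapped. Over all genes, 23.9% were called for such a difference, so neither call is rare in these data. Treated arrays lay above untreated ones of the same line for 25.3% of all genes in HEL and 27.2% in UKE1. They lay below for 26.7% in UKE1. These shares are within a line, and none was taken over both lines together.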

How the results depend on the processing

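The changes of MYB and MYBL1 in both lines, the fall of MYBL2 in UKE1 and the line differences of MYBL1 and MYBL2 kept their direction and their call under every alternative that gave a value. With 1 array left out at a time, MYBL1 rose by 1.61 to 1.72 in HEL and 2.72 to 3.01 in UKE1 (log2), and MYBL2 fell by 0.54 to 0.60 in UKE1. With genes above the median level only, MYBL1 was below that level and gave no value. The uncalled difference of MYB between the responses turned to -0.016 after centring on the array median. The uncalled difference of MYB between the untreated lines (0.14) became a call after a further quantile normalization (0.32), after centring on the array median (0.19), with genes above the median level only (0.14) and with a trend and robust prior (0.14). It ranged from 0.12 to 0.16 with 1 array left out, with calls without untreated HEL replicate 2 (adjusted p = 0.0474) or treated UKE1 replicate 2 (adjusted p = 0.0483). The treated difference of MYB ranged from 0.16 to 0.22. Genes called between untreated lines numbered 12471, against 7381 with genes above the median level only and 19147 with all rows in the fit; between treated lines they numbered 12525, against 7295 and 19169, as fewer or more rows were tested. In 1 line alone the unequal responses could not reach p under 0.1: MYBL1 minus MYB was 3.08 in HEL and 4.24 in UKE1, MYBL2 minus MYB 1.48 and 0.80, and MYBL1 minus MYBL2 1.60 and 3.44. Of the genes called for the difference between responses, 42.2% were higher in UKE1 as deposited and 30.6% after centring. With the replicate number as a block, MYB changed by -1.41 in HEL (adjusted p = 1.42e-06), and 7590 genes were called in HEL and 7896 in UKE1, against 7816 and 8160 without the block; the block changed no call of a family member. The meiotic and piRNA pathway genes that fell in UKE1 numbered 1 after a further quantile normalization, against 2.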
